A study of Rattus norvegicus with 12 samples.

Results

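The 32 genes described here make cholesterol, sense it or move it: 18 enzymes of the synthesis pathway, 5 genes of the SREBP factors and their control, 5 genes of sterol transport and efflux, the 2 LXR receptors and 2 fatty acid enzymes. They were taken by symbol from a list of pathway genes, and each had a single row among the 21071 genes of the deposited table. The list was chosen with earlier results of these data known, so its counts beside the shares of all genes are a description only. All 32 passed the filter on low counts and were among the 15650 genes tested. RNA came from cultured cells of the rat nucleus pulposus, the soft centre of the spinal disc, grown in medium with 10% serum. There were 4 groups of 3 libraries: NPPC-Exo, miR-Exo, erastin with NPPC-Exo and erastin with miR-Exo. NPPC-Exo are exosomes, small secreted vesicles, from nucleus pulposus progenitor cells, and miR-Exo are such exosomes overexpressing miR-221-3p. Every library came from cells given exosomes, so no group was without them. The protocol gives 50 µg/mL for NPPC-Exo and names no separate amount for miR-Exo. Erastin, which blocks cystine uptake and drives ferroptosis, was used at 0.1 to 5 µM for 48 h, with no dose tied to any library. The sample titles name erastin where the column headers of the table say "Model". Nothing in the labels says whether libraries 1 to 3 of a group were separate cultures, and the p-values therefore speak only of the spread between these libraries, which may be technical.

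Library totals ran from 54616827 to 68865720 counts, at which 3 counts equal a CPM (a count scaled to library size, here with the TMM method) of 0.044 to 0.0565. Of 10 nucleus pulposus markers, 6 were in the table, and their summed FPKM (reads scaled by gene length and library size) was 909 to 1160 without erastin and 147 to 206 with it. Acan and Col2a1 led that sum, Krt18 was at or near 0 in every group, and Tbxt, Krt19, Car12 and Shh were not analysed here. Libraries NPPC-Exo 1 and miR-Exo 1 stood apart from the others of their groups along the main axis of within-group spread, which held 31% of that spread. Along this axis lay 88.1% of the within-group sum of squares of Srebf2, 84.3% of Srebf1, 69% of Nr1h2, 58.1% of Scap and 52.6% of Mvd, all higher in those libraries. Msmo1, with 87.2%, Fdft1, with 69.4%, Insig1, with 58%, Insig2, with 56.3%, and Fdps, with 55.3%, moved the opposite way. Results with and without both libraries are given for Srebf2, Srebf1, Nr1h2, Mvd, Msmo1 and Fdft1. For Scap, Insig1, Insig2 and Fdps, only single libraries left out are described.

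Cells build cholesterol from acetyl-CoA through mevalonate, squalene and lanosterol, and the genes for nearly every step are switched on by SREBP2, a transcription factor held in the endoplasmic reticulum membrane. When sterols are scarce, SCAP carries SREBP2 to the Golgi, where proteases release its active part. When sterols are plentiful, INSIG proteins hold SCAP back, while oxysterols activate the LXR receptors and raise the ABC transporters that export cholesterol. Ferroptosis, death by lipid peroxidation, touches this pathway because mevalonate also supplies coenzyme Q, and 7-dehydrocholesterol can trap lipid radicals.

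The microRNA that separates the exosome types is printed first, with its seed, bases 2 to 8, in capitals. It is the RefSeq entry for rat, and no target site in any of these genes was searched for.
rno-miR-221-3p: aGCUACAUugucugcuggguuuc

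RefSeq promoters (GRCr8 assembly, 250 bases before the start of transcription to 50 after it) were found for 26 of the 32 genes, and Srebf1 had 2, giving 27. Pmvk, Fdft1, Sqle, Stard4, Abcg1 and Fasn had no entry. Motifs were searched on both strands. CCAAT, the box bound by NF-Y, a partner of SREBP at sterol-regulated promoters, was in 18 of the 27 (66.7%) and in 12 of 15 enzyme promoters (80%), against 37.5% of all 33469 promoters and 36.9% of those of tested genes. GGGCGG, the GC box, was in 21 of 27 (77.8%), against 33.1% of all promoters and 59.8% of those of tested genes. CACGTG was in 4 of 27 (14.8%) and in 1 of 15 enzyme promoters (6.67%), against 6.42% of all and 8.82% of those of tested genes. TCACNCCAC, the sterol regulatory element searched, was in 0 of 27, against 1.12% of all promoters. The shorter CACNCCAC, which lies within it, was in 3 of 27 (Acat2, Ebp and Insig1; 11.1%), against 5.8% of all. A match is a run of letters, not a measured binding site, and these shares are a description with no test.

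The 250 bases before the start are shown on the strand of the gene for 5 genes, with CCAAT or its reverse complement ATTGG in capitals. They were chosen after their values were seen: Hmgcs1, Idi1 and Msmo1 fell in both erastin comparisons and both exosome comparisons, Insig1 is the feedback gene that fell with the enzymes under erastin, and Ebp is the enzyme that rose. The boxes number 2 in Hmgcs1 (chr2:53382054-53382303, plus strand), 2 in Idi1 (chr17:66547525-66547774, minus strand), 3 in Msmo1 (chr16:29746863-29747112, plus strand), 1 in Insig1 (chr4:8057770-8058019, minus strand) and 2 in Ebp (chrX:16971212-16971461, plus strand).
Hmgcs1: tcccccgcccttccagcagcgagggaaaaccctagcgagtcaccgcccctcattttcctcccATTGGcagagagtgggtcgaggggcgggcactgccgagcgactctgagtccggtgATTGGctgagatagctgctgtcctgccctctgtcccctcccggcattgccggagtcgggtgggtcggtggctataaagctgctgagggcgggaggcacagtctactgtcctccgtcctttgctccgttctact
Idi1: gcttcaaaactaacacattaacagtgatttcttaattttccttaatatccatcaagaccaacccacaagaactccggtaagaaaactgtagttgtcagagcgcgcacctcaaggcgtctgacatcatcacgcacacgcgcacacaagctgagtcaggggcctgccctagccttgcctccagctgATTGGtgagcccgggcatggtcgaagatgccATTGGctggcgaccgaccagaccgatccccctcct
Msmo1: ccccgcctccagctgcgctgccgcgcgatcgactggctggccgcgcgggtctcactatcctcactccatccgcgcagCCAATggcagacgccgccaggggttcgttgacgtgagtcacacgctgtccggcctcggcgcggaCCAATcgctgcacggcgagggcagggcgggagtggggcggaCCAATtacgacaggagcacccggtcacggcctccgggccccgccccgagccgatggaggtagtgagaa
Insig1: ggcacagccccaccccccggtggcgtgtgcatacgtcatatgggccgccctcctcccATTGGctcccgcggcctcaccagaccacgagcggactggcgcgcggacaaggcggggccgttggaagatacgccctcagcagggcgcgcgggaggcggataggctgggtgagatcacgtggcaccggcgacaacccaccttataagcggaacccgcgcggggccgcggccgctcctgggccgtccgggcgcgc
Ebp: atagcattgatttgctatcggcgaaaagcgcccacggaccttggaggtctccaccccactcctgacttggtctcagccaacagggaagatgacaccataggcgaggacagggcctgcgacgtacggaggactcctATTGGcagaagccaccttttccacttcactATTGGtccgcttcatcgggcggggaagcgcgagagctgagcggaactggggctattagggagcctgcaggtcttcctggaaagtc
Ebp, which rose with erastin, and Hmgcs1, which fell, each held 2 of these boxes in the bases shown. The enzyme promoters without a box were those of Acat2, Cyp51 and Dhcr7, which also fell. Whether the boxes bear on the changes was not tested.

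By level, the enzymes ran from percentile 33 to 97.4 of the tested genes in the NPPC-Exo group. There Msmo1, the C4-demethylase that starts removal of the paired methyl groups after lanosterol, was highest, with 126 ± 9.94 FPKM (SD, n = 3). Tm7sf2 was the lowest enzyme, with 1.87 ± 0.179 FPKM, and Hsd17b7 had 2.59 ± 0.0603. Next below Msmo1 came the sterol carrier Npc2 with 89.7 ± 9.51 FPKM, then Fdps with 76.6 ± 3.74 and Hmgcs1 with 75.3 ± 2.79, whose ranges overlap. Cyp51 had 62.2 ± 1.75 FPKM, below that pair. Of the transcription factors, Srebf2 had 24.1 ± 4.97 FPKM and Srebf1 6.60 ± 1.20. At the low end were the efflux pump Abca1 with 0.567 ± 0.0416 FPKM, the receptor Nr1h3 with 0.557 ± 0.185, whose ranges overlap, and Abcg1, listed at 0 in 2 of the 3 libraries. Summed over the 18 enzymes, FPKM was 525 to 568 with NPPC-Exo and 468 to 526 with miR-Exo, and with erastin added it was 377 to 386 and 353 to 372. In this sum the erastin groups lay below both groups without it.

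Under erastin most of the cholesterol synthesis genes fell, and the genes of cholesterol export rose. With NPPC-Exo, 18 of the 32 genes were lower and 6 higher at an adjusted p under 0.05 (edgeR's quasi-likelihood test, Benjamini-Hochberg over 15650 genes), where 22.1% of all tested genes were lower and 21.5% higher. With miR-Exo, 23 were lower and 5 higher, where 24.4% of all were lower and 24.7% higher. The 3 libraries with erastin lay wholly below the 3 without it in 19 genes and above in 7 with NPPC-Exo (26.6% and 27.0% of all genes), and in 24 and 6 with miR-Exo (28.1% and 30.3%). Of the 18 enzymes, 15 fell and 1 rose with NPPC-Exo, and 16 fell and 1 rose with miR-Exo. The median log2 fold change of the enzymes was -0.76 with NPPC-Exo and -0.65 with miR-Exo, beside 0.018 and 0.029 for all genes. Scaled by library size alone, which moved the median of all genes to 0.30 and 0.33, 12 enzymes fell and 1 rose in each comparison, and the 32 genes split into 13 lower and 8 higher with NPPC-Exo and 16 lower and 7 higher with miR-Exo. At that scaling 11.7% of all genes were lower and 40.9% higher with NPPC-Exo, and 13.8% and 44.5% with miR-Exo. The enzymes that no longer passed as lower were Acat2, Sqle and Tm7sf2 in both comparisons and Hsd17b7 with miR-Exo. Without both libraries that stood apart, the splits were 18 lower and 6 higher, and 21 lower and 5 higher. In these bulk libraries, fewer cells of a kind and less RNA per cell cannot be told apart.

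Markers of cell identity moved in the same comparisons. The nucleus pulposus sum was 188 to 206 FPKM in erastin with NPPC-Exo and 147 to 160 in erastin with miR-Exo. Acan (log2 fold changes -2.81 and -3.09), Col2a1 (-2.18 and -3.92) and Sox9 (-1.38 and -2.50) fell in both comparisons. Cd24 went the other way and was higher in both (0.85 and 0.74). Krt8 had -0.15 (adjusted p = 0.596) and -0.68 (adjusted p = 0.0137). Of 5 fibroblast markers, 4 were in the table, and they summed to 4050 to 5300 FPKM with NPPC-Exo and 4510 to 5810 with miR-Exo, and to 2490 to 3000 and 1510 to 1960 with erastin added. Col1a1, a collagen gene, made up most of that sum and changed by -1.04 and -2.02, and Thy1 by -0.64 and -0.89. Pdgfra rose, by 0.33 and 1.06, and Dcn, encoding decorin, had 0.081 (adjusted p = 0.751) and 2.51 (adjusted p = 6.36e-08). The fibroblast genes thus did not move in 1 direction. The 3 endothelial markers in the table, of 5, summed to 0.18 to 0.7 FPKM over all groups; Tek was higher with erastin (1.32 and 0.98), while Kdr and Tie1 were at 0 counts in both erastin groups. The part of these markers in the changes of the 32 genes was not tested.

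**Figure D1:**
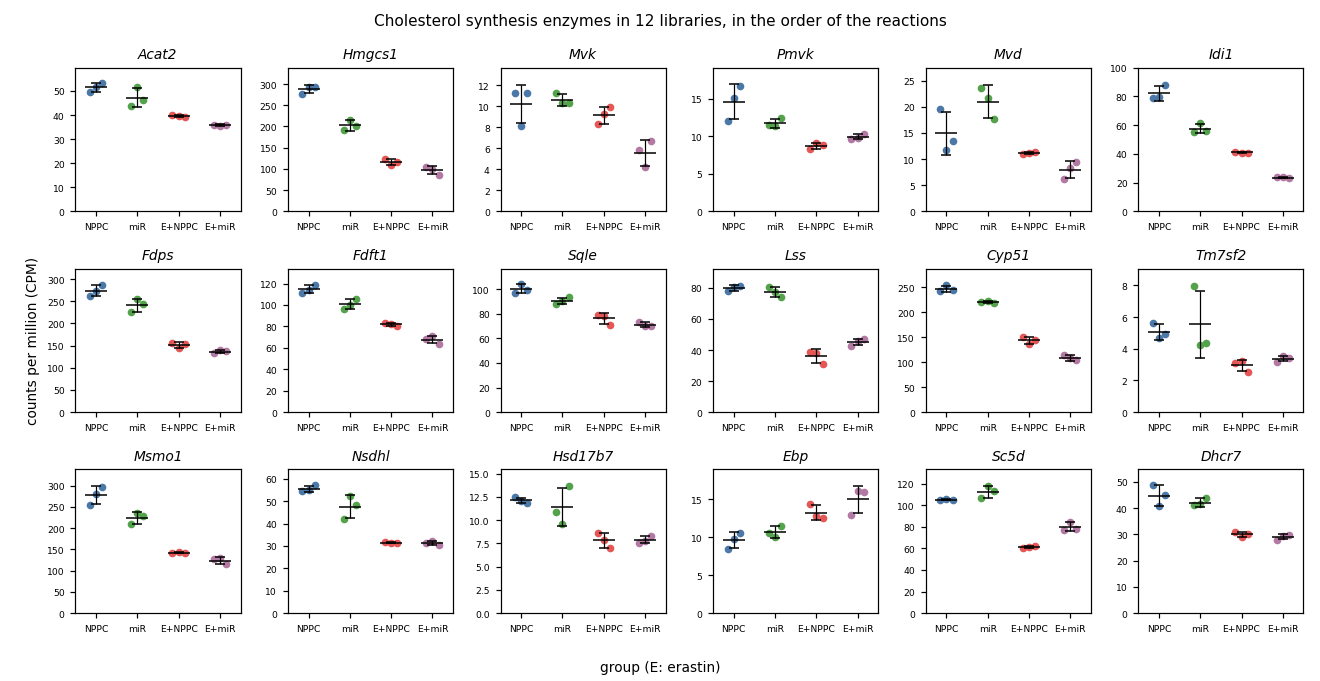
CPM (y axis, linear, each panel on its own scale from 0) of the 18 cholesterol synthesis enzymes in the 12 libraries; points are libraries, bars the group mean and SD (n = 3), and E marks erastin. Hmgcs1 sits between 277 and 294 with NPPC-Exo and between 110 and 122 with erastin added, while Ebp, alone among the 18, is higher in both erastin groups.

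Hmgcs1, the synthase that condenses acetyl-CoA into HMG-CoA, gave the largest fall among the enzymes with NPPC-Exo. It was at 277, 293 and 294 CPM with NPPC-Exo and 122, 110.2 and 116 with erastin added. With miR-Exo it was at 191, 216 and 201, and at 105, 100.02 and 86.1 with erastin. Every erastin library was below every library without it. The log2 fold changes were -1.31 ± 0.073 (SE) and -1.06 ± 0.073 (adjusted p = 9.36e-09 and 5.88e-08), so that it fell by 59.6% and by 52.2%.

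Idi1, which isomerises isopentenyl diphosphate, separated all 4 groups. It was at 78.7, 79.6 and 87.7 CPM with NPPC-Exo, 55.4, 61.1 and 55.6 with miR-Exo, 41.5, 40.5 and 40.7 with NPPC-Exo and erastin, and 23.6, 23.7 and 23.0 with miR-Exo and erastin. No library of any group overlapped another group. Erastin lowered it by a log2 fold change of -1.0 ± 0.061 with NPPC-Exo and -1.29 ± 0.062 with miR-Exo (adjusted p = 1.93e-08 and 1.67e-09).

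The other mevalonate steps moved less evenly. Fdps, which makes farnesyl diphosphate, went from 274 ± 12.7 to 152 ± 5.75 CPM with NPPC-Exo (SD, n = 3), a log2 fold change of -0.85 ± 0.056, and by -0.82 ± 0.056 with miR-Exo. Acat2, the cytosolic thiolase that opens the pathway, had changes of -0.38 ± 0.065 and -0.40 ± 0.065. Each fell in both comparisons, but scaled by library size alone Acat2 had -0.097 (adjusted p = 0.27) and -0.10 (adjusted p = 0.237) and passed in neither. Its FPKM went from 21.2 ± 0.847 to 19.8 ± 0.215 with NPPC-Exo and from 20.6 ± 2.23 to 19.1 ± 0.163 with miR-Exo, where the groups overlapped on that scale. In each of 3 genes of the middle steps the test passed under 1 exosome type and not the other. The diphosphomevalonate decarboxylase Mvd had -0.42 ± 0.19 (adjusted p = 0.0917) with NPPC-Exo and -1.40 ± 0.19 (adjusted p = 4.51e-05) with miR-Exo. The mevalonate kinase Mvk had -0.16 ± 0.17 (adjusted p = 0.488) and -0.93 ± 0.17 (adjusted p = 0.000495). The next kinase, Pmvk, had the reverse pattern, with -0.74 ± 0.12 (adjusted p = 0.000145) and -0.24 ± 0.12 (adjusted p = 0.103). The test of the difference between exosome types is given with the interaction, where Mvd passed and Mvk and Pmvk did not. Leaving both libraries that stood apart out, Mvd had -0.17 (adjusted p = 0.427) and -1.30 (adjusted p = 3.95e-05). The patterns of Mvd and Pmvk rest on single libraries. Without NPPC-Exo 2, Mvd passed with NPPC-Exo too (-0.57, adjusted p = 0.035), and without NPPC-Exo 1, Pmvk passed with miR-Exo too (-0.24, adjusted p = 0.0433). For Mvk, leaving out any 1 of the 12 libraries changed the outcome in neither comparison.

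All 3 genes from farnesyl diphosphate to lanosterol fell in both comparisons. Lss, which folds squalene epoxide into lanosterol, was at 77.8, 80.6 and 81.0 CPM with NPPC-Exo and 38.9, 38.1 and 31.0 with erastin added, then 80.3, 77.3 and 73.9 with miR-Exo and 42.7, 45.8 and 46.9 with erastin. The groups with and without erastin did not overlap, and the changes were -1.15 ± 0.080 and -0.77 ± 0.079 (adjusted p = 7.46e-08 and 2.97e-06). Squalene synthase, Fdft1, changed by -0.49 ± 0.055 and -0.57 ± 0.055, and by -0.51 and -0.60 without both libraries that stood apart. Squalene epoxidase, Sqle, often called the second control point of the pathway, changed least, by -0.40 ± 0.056 and -0.35 ± 0.056 (adjusted p = 6.14e-05 and 0.000178), and scaled by library size alone it was -0.11 and -0.044 and passed in neither comparison.

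After lanosterol, 7 of the 8 enzymes fell in both comparisons. Msmo1 was at 255, 281 and 296 CPM with NPPC-Exo and 142, 143 and 141 with erastin, and at 209, 237 and 228 with miR-Exo and 126, 130.3 and 115 with erastin. Cyp51, the lanosterol 14-demethylase, was at 242, 254 and 245 and 150.4, 136 and 145 with NPPC-Exo, and at 219.9, 223 and 218 and 115, 108 and 104 with miR-Exo. In both genes all erastin libraries lay below all others, with changes of -0.97 ± 0.067 and -0.86 ± 0.067 for Msmo1 and -0.78 ± 0.051 and -1.01 ± 0.052 for Cyp51. When both libraries that stood apart were left out, Msmo1 changed by -1.02 and -0.91. Nsdhl and Hsd17b7, partners of Msmo1 in removing the C4 methyl groups, changed by -0.82 and -0.60, and by -0.63 and -0.54, the last not passing with library size alone (-0.23, adjusted p = 0.144). Hsd17b7 shares 19943 bases with a gene on the opposite strand, and the strand setting of the counting is not given in the sources used here, so its counts are uncertain. Dhcr7, which consumes 7-dehydrocholesterol in the last reduction, changed by -0.58 ± 0.072 and -0.53 ± 0.072 (adjusted p = 2.03e-05 and 3.92e-05). Sc5d, which makes 7-dehydrocholesterol, changed by -0.78 ± 0.054 and -0.49 ± 0.054 (adjusted p = 6.94e-08 and 5.01e-06). Thus both the gene that makes this sterol and the gene that uses it were lower. Tm7sf2, a low gene for the sterol reductase at carbon 14, had -0.78 ± 0.22 and -0.71 ± 0.22 (adjusted p = 0.0122 and 0.0171). Its call with NPPC-Exo was lost without erastin NPPC-Exo 3 (adjusted p = 0.06), and its call with miR-Exo without miR-Exo 1 (-0.35, adjusted p = 0.104) or erastin miR-Exo 1 (adjusted p = 0.054). Scaled by library size alone it had -0.49 and -0.40 (adjusted p = 0.0773 and 0.134). Tm7sf2 also overlaps Vps51 by 1066 bases on the same strand.

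Ebp, the sterol isomerase between the demethylation steps and Sc5d, went against its neighbours. It was at 8.45, 9.81 and 10.6 CPM with NPPC-Exo and 14.3, 12.8 and 12.5 with erastin, and at 10.6, 10.0 and 11.5 with miR-Exo and 12.9, 16.1 and 16.0 with erastin. The erastin libraries lay above the others under each exosome type. The log2 fold changes were 0.46 ± 0.12 and 0.49 ± 0.12 (adjusted p = 0.00691 and 0.00404), and the call held without any 1 of the 12 libraries. No other gene of the table overlaps it.

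**Figure D2:**
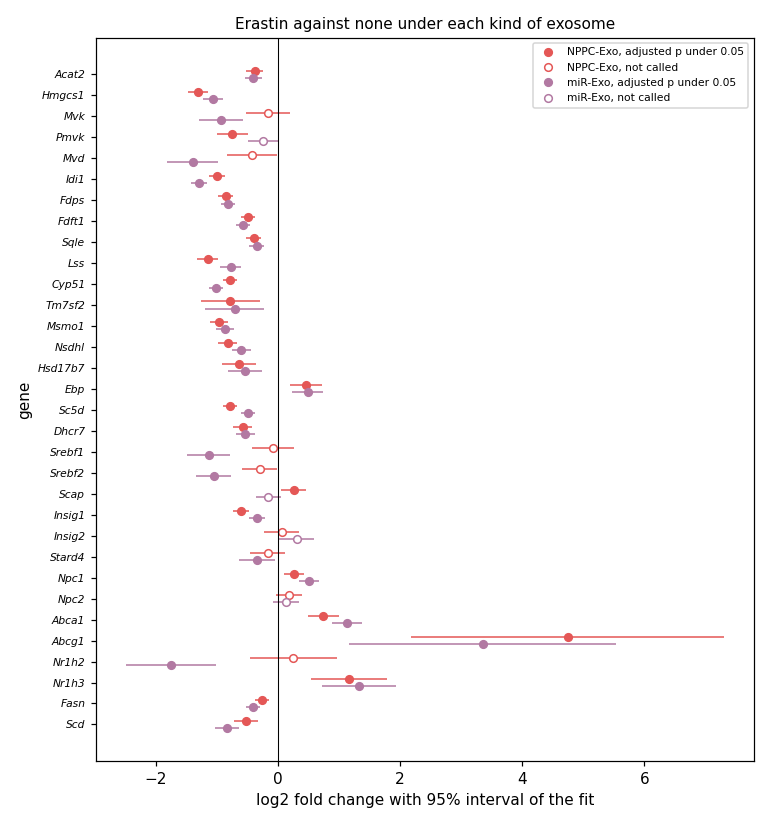
Log2 fold change of erastin against none (x axis) for the 32 genes (y axis), with NPPC-Exo in red and miR-Exo in purple; bars are 95% intervals of the fit and filled points passed an adjusted p of 0.05. Points left of 0 are lower with erastin; Hmgcs1 is at -1.31 and -1.06, Ebp at 0.46 and 0.49, and Abcg1 has the widest intervals.

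Both transcription factor genes fell under erastin with miR-Exo and passed the test in neither direction with NPPC-Exo. Srebf2, which encodes SREBP2, was at 177, 138 and 117 CPM with NPPC-Exo and 107, 116 and 128 with erastin. With miR-Exo it was at 184, 143 and 145, and at 74.1, 73.4 and 80.3 with erastin. The groups overlapped with NPPC-Exo and lay apart with miR-Exo. With NPPC-Exo the change was -0.30 ± 0.13 (adjusted p = 0.0869, 95% interval -0.59 to -0.012), and it passed without NPPC-Exo 3 (-0.43, adjusted p = 0.0158). With miR-Exo it was -1.05 ± 0.13 (adjusted p = 2.29e-05). Without both libraries that stood apart, these were -0.13 (adjusted p = 0.274) and -0.92 (adjusted p = 3.67e-06).

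Srebf1, which encodes the SREBP1 forms and mainly serves fatty acid synthesis, was at 42.3, 31.3 and 30.9 CPM with NPPC-Exo and 31.2, 33.5 and 34.2 with erastin. It was at 48.7, 41.2 and 37.6 with miR-Exo and 19.4, 14.95 and 23.8 with erastin. Only the pair with miR-Exo did not overlap. The changes were -0.079 ± 0.16 (adjusted p = 0.733) and -1.13 ± 0.16 (adjusted p = 6.32e-05). The same fit without NPPC-Exo 1 and miR-Exo 1 gave 0.084 (adjusted p = 0.691) and -1.02 (adjusted p = 0.000124).

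Among the genes that hold the factors back or carry them, Insig1, an SREBP2 target that retains SCAP, fell with the enzymes. It was at 75.5, 78.4 and 81.5 CPM with NPPC-Exo and 51.8, 49.9 and 52.8 with erastin, and at 69.9, 76.8 and 75.1 with miR-Exo and 60.6, 59.4 and 54.4 with erastin. No erastin library reached the level of those without it. The changes were -0.61 ± 0.060 and -0.35 ± 0.060 (adjusted p = 2.28e-06 and 0.000311), and scaled by library size alone the second was -0.044 (adjusted p = 0.572). Insig2, its close relative, had 0.063 ± 0.13 and 0.31 ± 0.13 (adjusted p = 0.739 and 0.0668) and passed in neither. It passed as higher with miR-Exo without NPPC-Exo 1 or 3 (adjusted p = 0.0173 to 0.0437), and in both comparisons with library size alone (0.35 and 0.61; adjusted p = 0.041 and 0.00128). Scap, the escort, had 0.26 ± 0.10 (adjusted p = 0.0409) and -0.16 ± 0.10 (adjusted p = 0.200). Its call with NPPC-Exo was lost without NPPC-Exo 2 or 3 or any 1 of the 3 erastin NPPC-Exo libraries (adjusted p = 0.0517 to 0.165).

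**Figure D3:**
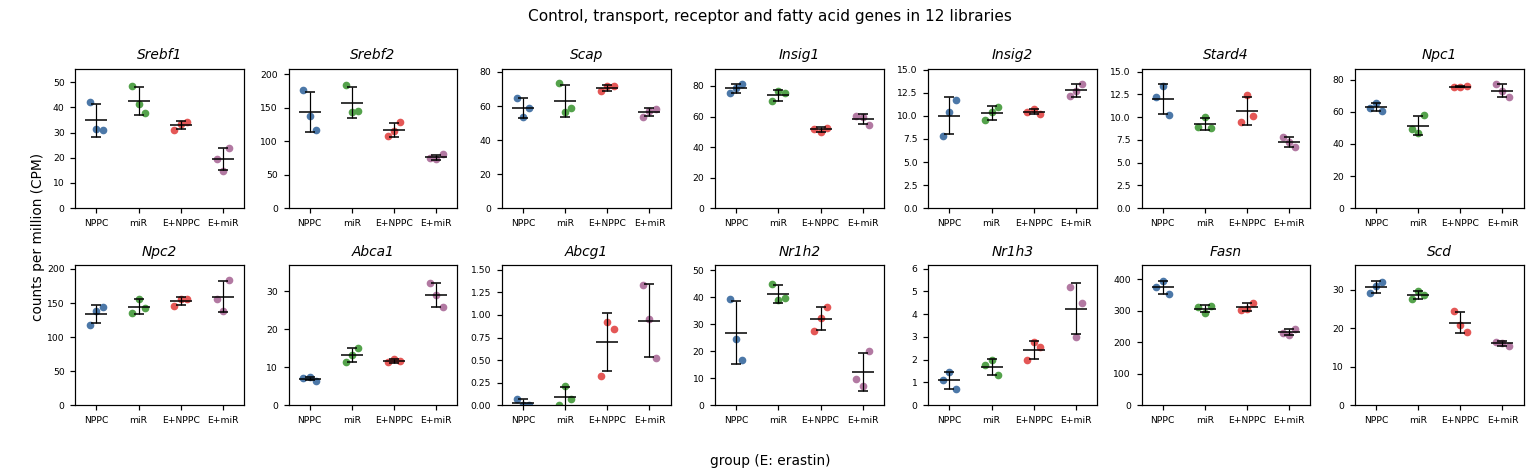
CPM (y axis, linear, each panel on its own scale from 0) of the 14 genes that are not synthesis enzymes; points are libraries, bars the group mean and SD (n = 3), and E marks erastin. Abca1 rises from 6.44 to 7.32 with NPPC-Exo alone to 25.9 to 32.1 with erastin and miR-Exo, and Nr1h2 is lowest in that last group.

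Both genes of cholesterol export rose under erastin. Abca1, which loads cholesterol onto apolipoproteins, was at 7.18, 7.32 and 6.44 CPM with NPPC-Exo and 11.3, 12.3 and 11.6 with erastin. It was at 11.4, 13.3 and 15.1 with miR-Exo and 32.1, 28.9 and 25.9 with erastin. Erastin libraries were above the others within each exosome type, while the groups miR-Exo and erastin with NPPC-Exo overlapped. The changes were 0.74 ± 0.12 and 1.13 ± 0.11 (adjusted p = 0.000147 and 2.40e-06).

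Abcg1, which passes cholesterol to high-density lipoprotein, was close to the floor without erastin. Its raw counts were 4, 0 and 0 with NPPC-Exo, 0, 12 and 4 with miR-Exo, 19, 61 and 57 with NPPC-Exo and erastin, and 90, 65 and 34 with miR-Exo and erastin. All 6 erastin libraries exceeded all 6 others. From the summed counts scaled by depth, the ratio was 29.4 with NPPC-Exo (4 against 137 counts; 95% interval 11.2 to 109, counting error only) and 10.6 with miR-Exo (16 against 189 counts; 6.33 to 18.8). The test passed in both (adjusted p = 0.00516 and 0.0144), the second not without erastin miR-Exo 1 (adjusted p = 0.0601).

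Npc1, which releases cholesterol from lysosomes, was at 62.4, 65.4 and 60.4 CPM with NPPC-Exo and 75.3, 75.4 and 76.1 with erastin, and at 49.5, 46.6 and 58.1 with miR-Exo and 77.3, 72.7 and 68.99 with erastin. It was higher in every erastin library, by 0.27 ± 0.076 and 0.51 ± 0.076 (adjusted p = 0.0112 and 9.71e-05). Npc2, its soluble partner, had 0.19 ± 0.10 and 0.14 ± 0.10 and passed in neither (adjusted p = 0.142 and 0.275), but scaled by library size alone it passed in both, at 0.47 and 0.44 (adjusted p = 0.00144 and 0.00204). Stard4, a cytosolic sterol carrier and SREBP2 target, had -0.16 ± 0.13 (adjusted p = 0.356) and -0.34 ± 0.13 (adjusted p = 0.0490). The second call was lost on leaving out any 1 of 7 libraries, which were NPPC-Exo 1, miR-Exo 1, 2 and 3, erastin NPPC-Exo 3, and erastin miR-Exo 2 and 3 (adjusted p = 0.053 to 0.154), and with library size alone (-0.039, adjusted p = 0.828).

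The LXR receptors, which drive Abca1 and Abcg1 when bound by oxysterols, did not move together. Nr1h3, encoding LXR alpha, was at 1.09, 1.45 and 0.723 CPM with NPPC-Exo and 2.00, 2.77 and 2.56 with erastin, and at 1.76, 1.97 and 1.31 with miR-Exo and 5.20, 3.01 and 4.49 with erastin. It rose in both comparisons, by 1.17 ± 0.29 and 1.33 ± 0.28 (adjusted p = 0.00490 and 0.00145). Nr1h2, encoding LXR beta, was at 39.6, 24.4 and 16.8 with NPPC-Exo and 27.7, 32.3 and 36.4 with erastin, and at 45.2, 39.1 and 39.8 with miR-Exo and 9.65, 7.12 and 20.2 with erastin. Its spread was wide with NPPC-Exo, where the groups overlapped and the change was 0.26 ± 0.33 (adjusted p = 0.579). With miR-Exo the groups lay apart and it fell by 70.2%, a log2 fold change of -1.75 ± 0.34 (adjusted p = 0.000848). Without both libraries that stood apart, Nr1h2 had 0.64 (adjusted p = 0.149) and -1.68 (adjusted p = 0.00128).

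Abca1, Abcg1 and Nr1h3 are also macrophage genes. Of 8 macrophage and leukocyte markers, 6 were in the table, and their summed FPKM was 3.8 to 4.77 with NPPC-Exo and 5.01 to 5.79 with miR-Exo, and with erastin added it was 7.89 to 10.9 and 15.1 to 19.3. Cd14, at 15.03 ± 2.51 FPKM in the last group, made up most of the sum, Cd68 was at 2.14 ± 0.454, and Adgre1 was at 0 counts in every group but NPPC-Exo, where it had 8. By log2 fold change under erastin, Cd14 (0.86 and 1.49) and Cd68 (1.09 and 1.13) were higher in both comparisons. Csf1r (0.56 and -0.15), Lyz2 (0.075 and -0.68) and Itgam (0.64 and -3.91, at few counts) passed in neither. The markers of this list thus did not rise together. Ptprc and C1qa were not analysed here. The part of these markers in the rise of the 3 genes was not tested. The 5 adipocyte markers summed to 0.8 to 1.65 FPKM in all groups.

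Both fatty acid enzymes were lower. Fasn, the fatty acid synthase, was at 376, 393 and 351 CPM with NPPC-Exo and 304, 306 and 326 with erastin, and at 310.4, 293 and 316 with miR-Exo and 230.0, 222 and 241 with erastin, and the groups did not overlap. Its changes were -0.26 ± 0.054 and -0.41 ± 0.054 (adjusted p = 0.00146 and 3.44e-05), but with NPPC-Exo the sign turned under scaling by library size alone (0.021, adjusted p = 0.756), and with miR-Exo it no longer passed (-0.10, adjusted p = 0.106). Scd, the stearoyl-CoA desaturase, was at 29.0, 31.0 and 31.9 CPM with NPPC-Exo and 24.5, 20.9 and 18.9 with erastin, and at 27.6, 29.6 and 28.7 with miR-Exo and 16.5, 16.2 and 15.4 with erastin. It fell by 30.1% and by 44.1% (log2 fold changes -0.52 ± 0.091 and -0.84 ± 0.091; adjusted p = 0.000397 and 5.22e-06), the first not passing with library size alone (-0.23, adjusted p = 0.0521).

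Genes of the same pathways outside the 32 were counted against the shares of all tested genes, 22.1% lower and 21.5% higher with NPPC-Exo and 24.4% and 24.7% with miR-Exo. Of 14 other sterol pathway and SREBP2 target genes, 5 fell and 4 rose with NPPC-Exo, and 5 fell and 2 rose with miR-Exo (35.7% and 28.6%, then 35.7% and 14.3%), with medians of -0.072 and -0.12. Acat1, the mitochondrial thiolase, was lower in both, with changes of -0.49 ± 0.055 and -0.39 ± 0.055. Of 9 tested genes of SREBP processing and sterol sensing, 2 fell and 2 rose in each comparison, 22.2% either way, a share near that of all genes. Erlin1 (0.30 and 0.42) and Erlin2 (0.22 and 0.31), whose products restrain SREBP processing, were higher in both. Mbtps1, the protease that makes the first cut, had -0.23 (adjusted p = 0.000613) and -0.021 (adjusted p = 0.726). Of 15 tested fatty acid genes of the SREBP1 kind, 7 fell and 2 rose with NPPC-Exo (46.7% and 13.3%) and 5 fell and 2 rose with miR-Exo (33.3% and 13.3%). Scd2, a desaturase related to Scd, was lower in both (-0.35 and -0.66), and the elongase Elovl5 was higher in both (0.21 and 0.45).

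Of 6 tested LXR targets other than Abca1 and Abcg1, 3 fell in each comparison (50%), and 1 rose with miR-Exo (16.7%). Mylip, the ligase that degrades lipoprotein receptors, changed by -1.88 ± 0.13 and -1.12 ± 0.12, the phospholipid transfer protein gene Pltp by -0.77 ± 0.074 and -1.04 ± 0.074, and Smpdl3a by -0.91 ± 0.10 and -1.15 ± 0.10. Of 14 uptake, ester and oxysterol genes, 5 fell and 3 rose with NPPC-Exo (35.7% and 21.4%), and 4 fell and 6 rose with miR-Exo (28.6% and 42.9%). Cyp7b1, which hydroxylates oxysterols, rose by 4.56 ± 0.17 and 5.31 ± 0.17. Vldlr, a lipoprotein receptor, changed by -2.41 ± 0.076 and -2.32 ± 0.076, and so fell.

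Without erastin, 7 of the 32 genes were lower with miR-Exo than with NPPC-Exo and 1 was higher, where 6.52% of all tested genes were lower and 4.15% higher. The lower genes were Hmgcs1, Idi1, Fdps, Fdft1, Msmo1, Npc1 and Fasn, and the higher gene was Abca1. Libraries did not overlap in 11 genes lower and 2 higher with miR-Exo (15.8% and 13.0% of all). Medians were -0.085 for the 32 genes, -0.14 for the 18 enzymes and 0 for all genes. The libraries are those listed above: Hmgcs1 went from 277 to 294 CPM with NPPC-Exo to 191 to 216 with miR-Exo, and Idi1 from 78.7 to 87.7 to 55.4 to 61.1. Neither pair of groups overlapped, and the changes were -0.51 ± 0.072 (adjusted p = 0.000741) and -0.52 ± 0.060 (adjusted p = 0.000165). Abca1 was higher by 0.92 ± 0.12 (adjusted p = 0.000297) and Fasn was lower (-0.29 ± 0.054, adjusted p = 0.00507). These 4 calls held without any 1 of the 12 libraries.

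The other 4 calls of that comparison were less firm. Msmo1 (-0.30 ± 0.067, adjusted p = 0.0114) was lost without miR-Exo 1 (adjusted p = 0.0513). Npc1 (-0.29 ± 0.076, adjusted p = 0.0292) was lost without NPPC-Exo 2, miR-Exo 1 or miR-Exo 2 (adjusted p = 0.101 to 0.112). Fdps (-0.19 ± 0.055, adjusted p = 0.0494) stayed called only without NPPC-Exo 1 or miR-Exo 2, and was otherwise at 0.0647 to 0.184. Fdft1, at 111, 114 and 119 CPM with NPPC-Exo and 96.0, 100.4 and 106 with miR-Exo, had -0.19 ± 0.055 (adjusted p = 0.0447) and was lost on leaving out any 1 of 8 libraries (NPPC-Exo 2 or 3, miR-Exo 1 or 2, any of erastin NPPC-Exo, or erastin miR-Exo 1; adjusted p = 0.062 to 0.161). Without NPPC-Exo 2 the count of lower genes was 4 (3.81% of all genes in that fit), and without miR-Exo 1 it was 3 (4.3%). Without NPPC-Exo 1 the count of higher genes was 2 (5.27%). Leaving out both libraries that stood apart gave 5 lower and 2 higher, with Msmo1 at -0.31 (adjusted p = 0.0154) and Fdft1 at -0.18 (adjusted p = 0.129). Mvd then passed as higher, at 0.65 (adjusted p = 0.0468), against 0.49 ± 0.19 (adjusted p = 0.120) with all libraries. Srebf1, Srebf2 and Nr1h2 had 0.34, 0.17 and 0.94 without both (adjusted p = 0.231, 0.3 and 0.144) and passed in neither fit.

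Libraries with the same number deviated together between NPPC-Exo and miR-Exo, and with the number as a replicate block within these groups 4 of the 32 genes were lower and 4 higher, where 5.22% of all genes in that fit were lower and 5.03% higher. Hmgcs1, Idi1, Msmo1 and Fasn stayed lower, while Fdps (adjusted p = 0.0745), Fdft1 (0.0816) and Npc1 (0.0843) no longer passed. With the block, Mvd (0.53, adjusted p = 0.0483), Srebf1 (0.30, adjusted p = 0.0397) and Nr1h2 (0.71, adjusted p = 0.0439) passed as higher beside Abca1. The block was taken from the within-group spread of these same data. Mvd, Srebf1, Nr1h2 and Msmo1 lie largely along the main axis of that spread, so their passes with the block are not separate support for a difference. Library 3 of neither group correlated best with its own number: NPPC-Exo 3 did with miR-Exo 2 (0.219, against 0.14), and miR-Exo 3 with erastin miR-Exo 2 (0.229). Without the block, Srebf2 had 0.13 ± 0.13 (adjusted p = 0.603, 95% interval -0.16 to 0.41) and Srebf1 0.29 ± 0.16 (adjusted p = 0.289).

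**Figure D4:**
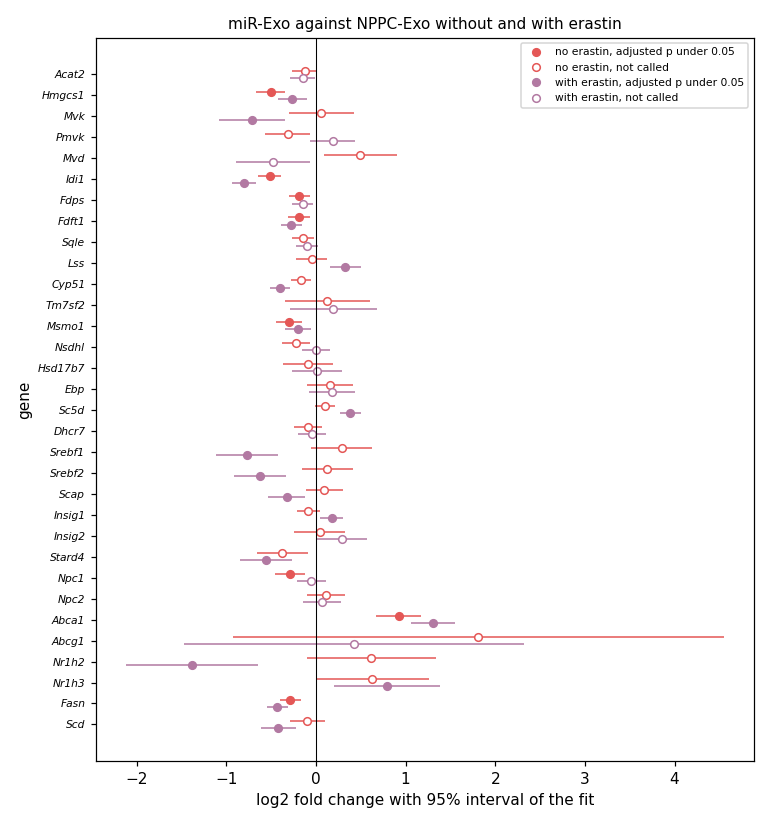
Log2 fold change of miR-Exo against NPPC-Exo (x axis) for the 32 genes (y axis), without erastin in red and with erastin in purple; bars are 95% intervals of the fit and filled points passed an adjusted p of 0.05. Idi1 is at -0.52 and -0.80 and Abca1 at 0.92 and 1.31, while Srebf1, Srebf2 and Nr1h2 lie right of 0 without erastin and left of 0 with it.

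With erastin present, 13 of the 32 genes were lower and 5 higher with miR-Exo than with NPPC-Exo (40.6% and 15.6%). Of all tested genes, 15.8% were lower and 15.6% higher, so the higher genes were at the share of all genes. Those shares of all genes were themselves above the 6.52% and 4.15% without erastin. Libraries did not overlap in 16 genes lower and 7 higher (23.4% and 24.5% of all). Among the 18 enzymes 6 were lower (Hmgcs1, Mvk, Idi1, Fdft1, Cyp51 and Msmo1) and 2 higher (Lss and Sc5d), with a median of -0.12 beside 0.011 for all genes. Idi1 was -0.80 ± 0.061 (adjusted p = 1.17e-06); against erastin with NPPC-Exo it fell by 42.7%. Cyp51 was -0.40 ± 0.051 (adjusted p = 7.82e-05) and Hmgcs1 -0.26 ± 0.073 (adjusted p = 0.0150). Fdft1, at 83.5, 82.0 and 80.3 CPM with NPPC-Exo and erastin and 68.4, 70.8 and 63.9 with miR-Exo and erastin, was -0.27 ± 0.055 (adjusted p = 0.00225). The groups of these 4 genes did not overlap. Msmo1 (-0.20, adjusted p = 0.0386) was lost on leaving out any 1 of 6 libraries (NPPC-Exo 2, miR-Exo 3, any of erastin NPPC-Exo, or erastin miR-Exo 3; adjusted p = 0.0508 to 0.0823). Without both libraries that stood apart, Msmo1 and Fdft1 had -0.20 and -0.27 (adjusted p = 0.0148 and 0.00235), and Mvd passed as lower, at -0.48 (adjusted p = 0.0249), against -0.48 ± 0.19 (adjusted p = 0.0727) with all libraries. Cell identity markers differed in the same comparison. Col2a1, the cartilage collagen, differed by -1.74, Sox9 by -1.18, Col1a1 -0.85, Thy1 -0.57, Pdgfra 0.40, Dcn 2.83, Cd14 0.81, Cd68 1.22, Acan -0.24 and Cd24 0.42, each past the test, and their part in the 18 differences was not tested.

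Sc5d and Lss ran the other way. Sc5d was at 60.3, 61.0 and 62.2 CPM with NPPC-Exo and erastin and 77.1, 84.6 and 77.8 with miR-Exo and erastin, 0.38 ± 0.054 higher on the log2 scale (adjusted p = 0.000156). Lss was 0.33 ± 0.080 higher (adjusted p = 0.00710). In both genes the libraries of erastin with miR-Exo lay between those of erastin with NPPC-Exo and those without erastin.

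Of the control and transport genes, Srebf1 (-0.77 ± 0.16, adjusted p = 0.00290), Srebf2 (-0.62 ± 0.13, adjusted p = 0.00325), Nr1h2 (-1.39 ± 0.34, adjusted p = 0.00747) and Stard4 (-0.55 ± 0.13, adjusted p = 0.00679) were lower with miR-Exo under erastin. Srebf1, Srebf2 and Nr1h2 also passed without both libraries that stood apart (adjusted p = 0.00102, 0.000113 and 0.00428). Abca1 was higher, by 1.31 ± 0.11 (adjusted p = 3.26e-06), and both Fasn (-0.43, adjusted p = 6.99e-05) and Scd (-0.42, adjusted p = 0.00359) were lower. The 3 weaker calls depended on single libraries. Scap (-0.32, adjusted p = 0.0204) was lost without erastin NPPC-Exo 3 or erastin miR-Exo 1 (adjusted p = 0.0514 to 0.0662). Insig1 (0.17, adjusted p = 0.0417) was lost on leaving out any 1 of 7 libraries (NPPC-Exo 2, miR-Exo 3, any of erastin NPPC-Exo, or erastin miR-Exo 1 or 2; adjusted p = 0.0536 to 0.218). Nr1h3 (0.79, adjusted p = 0.0437) was lost on leaving out any 1 of 6 (miR-Exo 1, any of erastin NPPC-Exo, or erastin miR-Exo 1 or 3; adjusted p = 0.0506 to 0.191). Without erastin miR-Exo 1, or any 1 of the erastin NPPC-Exo libraries, 3 genes were higher instead of 5. Abcg1 had an adjusted p of 0.767 here and 0.409 without erastin.

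Whether the erastin effect itself differed between the exosome types was tested as an interaction, and 8 of the 32 genes passed, where 12.8% of all tested genes did. The erastin change was lower with miR-Exo in 6 of them and higher in 2 (7.01% and 5.81% of all genes). Among the cell markers the same test passed for Col2a1 (-1.74), Sox9 (-1.12), Col1a1 (-0.98), Thy1 (-0.25), Pdgfra (0.73) and Dcn (2.42), and their part in the 8 was not tested. The difference, the erastin change with miR-Exo minus that with NPPC-Exo, was -1.05 ± 0.23 on the log2 scale for Srebf1 (adjusted p = 0.0103) and for Nr1h2 -2.0 ± 0.47 (adjusted p = 0.0167). Both differences passed without any 1 of the 12 libraries, at adjusted p = 0.00278 to 0.032 and 0.00155 to 0.0483. For Srebf2 it was -0.75 ± 0.19 (adjusted p = 0.0213), lost without NPPC-Exo 2, miR-Exo 1, erastin NPPC-Exo 3 or erastin miR-Exo 1 (adjusted p = 0.0513 to 0.0557). The number of genes passing was 2 without NPPC-Exo 2 or miR-Exo 1, 3 without erastin NPPC-Exo 3, erastin miR-Exo 1 or erastin miR-Exo 2, 4 without erastin NPPC-Exo 2, and 5 without NPPC-Exo 3, miR-Exo 2 or erastin NPPC-Exo 1. With both libraries that stood apart left out, 6 passed, and the 3 differences were -1.11 (adjusted p = 0.00593), -2.33 (adjusted p = 0.00889) and -0.80 (adjusted p = 0.00204).

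Among the enzymes the interaction passed for 5. Mvd (-0.97 ± 0.27, adjusted p = 0.0318), Idi1 (-0.29 ± 0.086, adjusted p = 0.0437) and Cyp51 (-0.24 ± 0.072, adjusted p = 0.0495) had the lower erastin change with miR-Exo, while Lss (0.38 ± 0.11, adjusted p = 0.0441) and Sc5d (0.28 ± 0.076, adjusted p = 0.0282) fell less. Mvd was at 19.6, 11.8 and 13.4 CPM with NPPC-Exo, 23.7, 21.8 and 17.6 with miR-Exo, 10.9, 11.2 and 11.4 with NPPC-Exo and erastin, and 6.20, 8.30 and 9.47 with miR-Exo and erastin, so that the miR-Exo libraries span the larger distance. Mvd also passed without NPPC-Exo 1 and miR-Exo 1 together, at -1.13 (adjusted p = 0.00893). Each of the 5 calls was lost on leaving out any 1 of 7 to 10 of the 12 libraries. For Mvd these were 8, all but NPPC-Exo 1, miR-Exo 3, erastin NPPC-Exo 1 and erastin miR-Exo 3 (adjusted p = 0.056 to 0.0771). For Idi1 (0.052 to 0.107) the exceptions were NPPC-Exo 3 and erastin miR-Exo 3. For Lss (0.0612 to 0.119) they were NPPC-Exo 1 and erastin NPPC-Exo 1. For Cyp51 (0.0664 to 0.0918) they were erastin NPPC-Exo 2 and erastin miR-Exo 1 and 3. For Sc5d (0.0598 to 0.109) the 7 were NPPC-Exo 2, miR-Exo 1, any of erastin NPPC-Exo, and erastin miR-Exo 1 and 2. Mvk (-0.77 ± 0.24, adjusted p = 0.0507) and Pmvk (0.50 ± 0.16, adjusted p = 0.0604) did not pass, and neither did Hmgcs1 (0.24 ± 0.10, adjusted p = 0.138) or Abca1 (0.38 ± 0.16, adjusted p = 0.138, 95% interval 0.036 to 0.73).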

How the data were processed

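RNA-seq of 12 libraries from rat nucleus pulposus cells was used, in 4 groups of 3. The deposited table holds raw counts per gene and FPKM, made by the authors with StringTie on mRatBN7.2, per the submitters' processing notes; no source used here gives versions, the aligner or the strand setting. Of counts from 1 to 20, 57.3% were even, so a fit on halved counts was added to the alternatives. The 32 genes and all other lists were chosen with earlier results of these data known.

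Counts were tested with edgeR 4.0.16 in R 4.3.3 (filterByExpr, TMM scaling, quasi-likelihood F test, 1 mean per group over all 12 libraries), with Benjamini-Hochberg adjustment over 15650 genes and a threshold of 0.05. The interaction is the erastin change with miR-Exo minus that with NPPC-Exo. Comparisons that share groups share their libraries. Intervals of summed counts are exact 95% limits and cover counting error only. The script was tested on simulated data. Alternatives were DESeq2 1.42.0, limma 3.58.1 on log2(FPKM + 1) and log2(FPKM + 0.1), other scalings and filters, a replicate block, and each library left out. All 32 genes are named, and of each further list at most the 4 with the smallest adjusted p under erastin.

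To check pairing, deviations from group means were correlated across 10162 genes with at least 5 CPM. Same-numbered libraries of NPPC-Exo and miR-Exo gave 0.422, 0.226 and 0.14, all over 0.1, so the numbers were taken to pair those groups; the pairing comes from the data, not the labels. No other pair of groups met this.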

Additional observations from a re-analysis of the deposited data

Results flagged for a closer look

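In 8 of the 32 genes the erastin change differed between miR-Exo and NPPC-Exo by the test of the difference itself. The differences, the erastin log2 change with miR-Exo minus that with NPPC-Exo, were -0.97 for Mvd, -0.29 for Idi1, -0.24 for Cyp51, -1.05 for Srebf1, -0.75 for Srebf2 and -2.0 for Nr1h2, lower with miR-Exo in each case. They were 0.38 for Lss and 0.28 for Sc5d, which fell less. The share of all tested genes that passed this test was 12.8%.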

How the results depend on the processing

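The counts of lower and higher genes under erastin kept within 1.5 times of 18 and 6 with NPPC-Exo, and of 23 and 5 with miR-Exo, under every alternative run but 1: with genes kept only at 5 CPM or more in 3 libraries, 3 genes rose with miR-Exo, since low genes such as Abcg1 were left out. Leaving out 1 library gave 17 to 19 lower and 5 to 6 higher with NPPC-Exo, and 21 to 23 lower and 4 to 6 higher with miR-Exo. Fasn with NPPC-Exo changed sign, to 0.021 with library size alone and to 0.016 and 0.017 with limma on log2(FPKM + 1) and log2(FPKM + 0.1). The FPKM fits also carried no TMM factor, so they are not separate checks from library size alone. TMM factors were 0.877 to 0.8784 with NPPC-Exo and 1.059 to 1.077 with erastin added. For miR-Exo against NPPC-Exo without erastin, 7 lower genes became 3 with library size alone, 4 with only the groups compared, 3 with limma at either pseudocount, and 3 to 8 on leaving out 1 library, with 1 to 2 higher. With erastin, 5 higher genes became 3 with no filter on low counts, and 12 to 15 lower and 3 to 6 higher on leaving out 1 library. The 8 genes of the interaction became 2 to 10 on leaving out 1 library, and 12 with DESeq2 and with genes kept only at 5 CPM or more in 3 libraries. Shares of all genes moved too: 3.98% were lower and 3.62% higher without NPPC-Exo 2, and 10.9% and 9.46% with that filter. The shorter sterol element was in 3 promoters, not 0. A replicate block over all 12 libraries gave 18 lower and 6 higher, 23 and 6, 5 and 1, and 13 and 3 in the 4 comparisons, and 6 in the interaction; 6 of 12 libraries correlated best with a library of their own number. The block within NPPC-Exo and miR-Exo, which gave 4 lower and 4 higher, and the fit without both libraries that stood apart, which gave 2 higher in that comparison, were chosen after seeing the data. Depth limits Abcg1, Nr1h3 and Tm7sf2 most.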
